A study of Homo sapiens with 19 samples.

Results

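Promoters carrying the active histone mark H3K27ac in Molm13 and OCI-AML3 but not in HL-60, and the reverse, were collected from the peak lists of these 3 acute myeloid leukaemia (AML) cell lines. A gene was counted as marked in a line when any of its annotated transcription start sites (TSSs) lay within 500 bp of an H3K27ac peak of that line. Of 19970 protein-coding genes on chromosomes 1 to 22 and X, 1981 were marked in both Molm13 and OCI-AML3 but not in HL-60, and 175 were marked in HL-60 only. Together they made 2156 genes, against 8550 marked in all 3 lines and 7988 marked in none. The genes were chosen by the peak calls, so that the presence and strength of their peaks are given as a description and were not tested. The first set held 9.92% of all coding genes and 18.8% of the 10531 genes marked in Molm13 and OCI-AML3. The second held 0.876% of all coding genes and 1.95% of the 8956 genes marked in HL-60.

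Acetylation of lysine 27 of histone H3 (H3K27ac) is laid down by the acetyltransferases CBP and p300 and marks active promoters and enhancers. At a promoter it accompanies transcription in most cases, although a marked promoter need not give much RNA, and no RNA was measured here. Immature myeloid cells switch on different promoters as they commit to the monocyte or the granulocyte lineage, and leukaemic lines are held at different points along these paths.

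The data came from chromatin immunoprecipitation followed by sequencing (ChIP-seq) with an H3K27ac antibody, with 1 library per line and no replicates. HL-60 and Molm13 cells were untransduced and untreated. OCI-AML3 cells had received a lentivirus for dCas9-KRAB-mCherry, a catalytically dead Cas9 fused to a repressor domain, followed by the control virus with no guide RNA and a BFP reporter, and had been sorted for both colours. All 3 lines were grown in RPMI medium with fetal bovine serum. The effect of the vector and that of the OCI-AML3 line cannot be told apart. The 3 lists come from 19 samples in the series, and the other samples, K562 included, were not used.

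The HL-60 list was the shortest. It held 20733 peaks on the chromosomes used, against 35069 in Molm13 and 37531 in OCI-AML3. Its peaks were also narrower, with a median width of 893 bp against 1142 bp and 1283 bp. HL-60 peaks marked 44.8% of coding genes, Molm13 peaks 54.1% and OCI-AML3 peaks 57.8%. The lists carry no read numbers, so that depth was unknown, and an absent HL-60 peak means a promoter below the caller's limit in this library, which need not be free of acetylation. Of 8 myeloid marker genes, all were marked in Molm13 and OCI-AML3 and 6 in HL-60, where the granulocyte receptor CSF3R and lysozyme (LYZ) lacked a peak. None of 5 erythroid, 3 T cell and 3 epithelial markers was marked in any of the lines, and the B cell factor PAX5 was marked in HL-60 only.

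Promoter sequences are shown for 10 genes on which the results below turn, to let CpG-poor promoters of innate immune genes be set beside CpG-rich ones. The first 4 belong to monocyte and inflammasome genes marked in Molm13 and OCI-AML3, namely MS4A6A (chr11:60184667-60184816, minus strand), CCR1 (chr3:46208314-46208463, minus strand), AIM2 (chr1:159076767-159076916, minus strand) and NLRP3 (chr1:247416023-247416172, plus strand). The next 3 have the same pattern of marks but more CpG dinucleotides, namely TLR2 (chr4:153684130-153684279, plus strand), HOXA9 (chr7:27165538-27165687, minus strand) and MEIS1 (chr2:66434975-66435124, plus strand). The last 3 are zinc finger genes marked in HL-60 only, namely ZNF793 (chr19:37506789-37506938, plus strand), ZNF568 (chr19:36916182-36916331, plus strand) and ZNF814 (chr19:57889038-57889187, minus strand). Each run gives the 150 bases before the RefSeq start (GRCh38.p14), 5′ to 3′ on the gene's strand, with every CG in capitals. All 10 starts lay inside a peak of the lines in which the gene was marked.
MS4A6A: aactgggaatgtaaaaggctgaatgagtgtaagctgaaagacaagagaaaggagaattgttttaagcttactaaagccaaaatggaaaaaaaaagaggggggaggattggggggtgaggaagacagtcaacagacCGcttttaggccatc
CCR1: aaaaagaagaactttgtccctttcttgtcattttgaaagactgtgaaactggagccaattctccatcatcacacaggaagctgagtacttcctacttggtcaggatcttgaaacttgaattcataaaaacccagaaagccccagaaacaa
AIM2: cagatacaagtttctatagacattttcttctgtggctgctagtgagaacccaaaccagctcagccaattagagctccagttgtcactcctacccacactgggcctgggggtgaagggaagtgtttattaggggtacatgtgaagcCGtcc
NLRP3: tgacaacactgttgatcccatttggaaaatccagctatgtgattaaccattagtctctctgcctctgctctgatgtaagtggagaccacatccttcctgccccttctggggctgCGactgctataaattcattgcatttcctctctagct
TLR2: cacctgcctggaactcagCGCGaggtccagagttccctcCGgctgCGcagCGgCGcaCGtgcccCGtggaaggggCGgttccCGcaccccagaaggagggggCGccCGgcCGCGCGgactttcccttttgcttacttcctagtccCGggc
HOXA9: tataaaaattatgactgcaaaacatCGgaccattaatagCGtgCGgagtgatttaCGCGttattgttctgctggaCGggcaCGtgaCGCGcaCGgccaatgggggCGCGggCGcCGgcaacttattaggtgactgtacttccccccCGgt
MEIS1: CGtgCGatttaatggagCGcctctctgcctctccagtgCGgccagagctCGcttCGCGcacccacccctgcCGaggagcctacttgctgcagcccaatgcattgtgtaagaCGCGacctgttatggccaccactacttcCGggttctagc
ZNF793: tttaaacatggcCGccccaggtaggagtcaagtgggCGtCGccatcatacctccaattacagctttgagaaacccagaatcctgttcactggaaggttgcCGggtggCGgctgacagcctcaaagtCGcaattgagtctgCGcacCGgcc
ZNF568: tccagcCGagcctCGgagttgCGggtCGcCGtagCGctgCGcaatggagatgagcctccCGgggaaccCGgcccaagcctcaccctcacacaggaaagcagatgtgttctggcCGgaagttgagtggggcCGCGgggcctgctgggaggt
ZNF814: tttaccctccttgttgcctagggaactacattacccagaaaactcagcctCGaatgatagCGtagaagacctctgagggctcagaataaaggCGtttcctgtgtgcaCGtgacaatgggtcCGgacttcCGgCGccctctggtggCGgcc
CCR1 showed 0 CpGs in its 150 bases and MS4A6A, AIM2 and NLRP3 showed 1 each. TLR2 showed 16, HOXA9 15, MEIS1 11, ZNF568 12, and ZNF793 and ZNF814 8 each.

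To ask whether the promoters differed in sequence, which the choice of genes did not use, CpG content was taken from 300 bases at the RefSeq start, 250 before and 50 after it. A promoter was called CpG-rich when its observed over expected CpG ratio was at least 0.6 and its GC content at least 50%. Of the genes marked in Molm13 and OCI-AML3 but not HL-60, 71.1% of 1482 matched promoters were CpG-rich, with a Wilson 95% interval of 68.7% to 73.3%. Of the genes marked in HL-60 only, 56.2% of 137 were CpG-rich, with an interval of 47.8% to 64.2%. The share was 84.1% among 7010 promoters marked in all 3 lines, 38.1% among 5741 marked in none, and 64.2% over all 15321. Both sets therefore lay between the genes marked everywhere and the unmarked genes. These intervals cover counting error only, and genes are not replicates of a line. RefSeq starts lay within 500 bp of the marking peaks for 1160 of the 1482 genes and for 77 of the 137. At those starts the shares were 77.8% and 71.4%, against 87.9% of genes marked in all 3 lines. When presence required a q-value below 0.001, the sets had 68.8% and 67.9%, so that the gap between them was lost.

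The zinc finger genes within the HL-60 set were more often CpG-rich than its other members. Of their 29 matched promoters 89.7% were CpG-rich, with an interval of 73.6% to 96.4%, against 47.2% of 108 other promoters of that set, with an interval of 38.1% to 56.6%. Where the RefSeq start lay within 500 bp of the marking peak, the gap was narrower. There 89.3% of 28 zinc finger promoters and 61.2% of 49 other promoters were CpG-rich. Immune genes of the other set had lower shares than these zinc finger genes. Of 12 members on a list of monocyte and macrophage genes, 8.33% (1 promoter) were CpG-rich, with an interval of 1.49% to 35.4%. Of the 10 matched members of the Toll-like and NLR receptor list 40% were, with an interval of 16.8% to 68.7%. That second interval holds the 64.2% over all promoters. RefSeq starts lay within 500 bp of the marking peaks for 7 of the 12, of which 14.3% were CpG-rich, and for all 10 of the others. Listed immune genes outside the set were not counted, so whether these shares are particular to it was not tested.

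Short motifs were counted on both strands of the same 300 bases, and a match is a description of letters and not of a binding site. They were the letters CCAAT of the box named after them, GGGCGG of the SP box, CCGGAAG of ETS factors in general, GAGGAAG of PU.1-type ETS factors, TGACGTCA of the cyclic AMP response element or CRE, CACGTG of the E-box, TGTGGT of RUNX, TGANTCA of AP-1, TTGCNNAA of C/EBP, GAAANNGAA of the interferon response element, TATAAA of the TATA box, AGATAA of the blood cell factors of the GATA family and AAGATGGC of YY1. The ETS motifs share the letters GGAAG. The general ETS motif stood in 12.01% of promoters marked in Molm13 and OCI-AML3 but not HL-60, in 14.6% of those marked in HL-60 only, in 24.4% of those marked in all 3 lines and in 14.4% of all promoters. YY1 stood in 2.36%, 1.46%, 7.08% and 3.97% of the same groups in the same order. The CRE stood in 2.16%, 0%, 3.85% and 2.64%. The PU.1-type motif, of the myeloid factor PU.1, stood in 13.8%, 18.98%, 14.7% and 14.3%, with an interval of 13.3% to 26.4% for the HL-60 set. Among the HL-60 zinc finger promoters the general ETS motif stood in 15 of 29, or 51.7% with an interval of 34.4% to 68.6%, and ZNF568 and ZNF814 were among those with a match. Neither this motif nor CpG content was counted for zinc finger genes outside the HL-60 set. Whether these shares are particular to the HL-60 set or shared by the family was therefore not tested.

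To describe what the genes do, 55 gene lists were counted, some of them families defined by their symbols. Each list was read as the number of its genes marked in Molm13 and OCI-AML3 that lacked an HL-60 peak, beside the 18.8% over all genes so marked. Since the lists were chosen with earlier results of these data known and each line had 1 library, no list was tested. Of the 1981 genes, 353 stood on at least 1 list, and 6 of the lists held none of them. The share of all coding genes on any list is not given here. Counts of members on any list, here and below, therefore cannot be read as high or low. Among lists with at least 10 genes marked in Molm13 and OCI-AML3, immune receptors, the WNT pathway, monocyte genes and Toll-like and NLR receptors had the largest shares, and ribosomal, respiratory chain, proteasome and DNA replication genes the smallest.

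The first group described is that of monocytes and macrophages. Of 35 listed genes 18 were marked in Molm13 and OCI-AML3, and 12 of these, or 66.7%, had no HL-60 peak. The strongest was MS4A6A, a membrane protein of monocytes, whose peak had a fold enrichment of 9.74 in Molm13 and 6.04 in OCI-AML3, with the nearest HL-60 peak 9495 bp away. MS4A4A, its neighbour, shared the same peak in both lines. The chemokine receptor CCR2, which draws monocytes out of the marrow, had a fold enrichment of 6.48 in Molm13 and 3.95 in OCI-AML3, and CCR1 had 6.43 and 4.73. For CCR1 an HL-60 peak began 659 bp from the TSS, just beyond the 500 bp limit, whereas for CCR2 the nearest lay 26490 bp away. The receptor for colony-stimulating factor 1, CSF1R, on which macrophages depend, had 4.77 and 2.73, with the nearest HL-60 peak at 17692 bp. IRF8, a transcription factor of monocytes and dendritic cells, had 4.399 and 3.15, with the nearest HL-60 peak 97752 bp away. CX3CR1, the fractalkine receptor, had 4.51 and 3.60. The scavenger receptor CD36 had 6.31 and 4.38. KLF4, CD86, LILRA1, LILRB1 and LILRB4 completed the list. KLF4 had 3.73 and 2.54 and the costimulatory ligand CD86 3.27 and 2.96, and both had −log10 q-values below 3 in at least 1 of these lines.

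Receptors that sense microbes and the proteins that relay their signal formed the next group. Of 22 genes of the Toll-like and NLR receptor list marked in Molm13 and OCI-AML3, 14 had no HL-60 peak, or 63.6%. Among the receptors, TLR1 and TLR6, which pair with TLR2 to sense bacterial lipopeptides, shared a peak with a fold enrichment of 6.94 in Molm13 and 6.38 in OCI-AML3. TLR2 itself had 5.01 and 4.04, with the nearest HL-60 peak 21898 bp from a TSS. TLR5, the flagellin receptor, had 6.45 and 2.36. Among the inflammasome genes, AIM2, a sensor of cytosolic DNA, had 8.82 and 4.61 and NLRP3 had 6.63 and 4.32, and their nearest HL-60 peaks lay 7696 bp and 83805 bp away. NLRC4 had 4.08 and 3.41 and the protease CASP1, which matures interleukin-1β, had 4.02 and 4.03. NLRP1, NLRP12 and NOD2 also belonged to the set. The adaptor MYD88 had 5.39 and 4.02 with an HL-60 peak at 844 bp, and TIRAP had 2.58 and 2.23 with an HL-60 peak at 508 bp. The adaptor TICAM1 had 4.13 and 2.97 with the nearest HL-60 peak at 28265 bp. With a limit of 1000 bp, TIRAP and MYD88 would both have counted as marked in HL-60.

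Paired immune receptors gave a like share. Of 17 genes of the leukocyte immunoglobulin-like receptor and SIGLEC list marked in Molm13 and OCI-AML3, 12 had no HL-60 peak. CD300C had a fold enrichment of 9.96 in Molm13 and 4.07 in OCI-AML3, LILRB4 7.35 and 4.14, and SIGLEC9 4.22 and 3.41. LILRB4 is an inhibitory receptor found on monocytic leukaemia cells. SIGLEC6, SIGLEC7, SIGLEC10, SIGLEC12 and SIGLEC16 were also members, each with a −log10 q-value under 3 in OCI-AML3 or Molm13. In the same list KIR3DL2, a receptor of natural killer cells, was marked in HL-60 only, with a fold enrichment of 5.58.

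Soluble signals and their receptors were also frequent. Of 18 chemokine and chemokine receptor genes marked in Molm13 and OCI-AML3, 11 had no HL-60 peak, among them CCL5, with 4.77 in Molm13 and 4.81 in OCI-AML3, the lymph node homing receptor CCR7, with 3.97 and 3.13, and CCL23, with 4.31 and 3.74. CCL18 and CCL4 were marked in HL-60 only, with fold enrichments of 3.60 and 4.78, and CCL4 lay 13052 bp from the nearest Molm13 peak. Of 26 interleukin and interleukin receptor genes 14 had no HL-60 peak. IL15RA, which presents interleukin-15 to neighbouring cells, had 5.60 and 3.82, IL10RA 4.47 and 3.04, IL7R 4.23 and 2.85, and the interleukin-1 antagonist IL1RN 3.99 and 3.53. IL4R had 3.38 and 3.64 but an HL-60 peak at 986 bp. Of 26 interferon-stimulated genes 11 had no HL-60 peak. XAF1 had 7.78 and 4.57, BST2, which tethers budding viruses, had 4.84 and 4.27, and IRF9, the DNA-binding part of the interferon-activated factor, 4.22 and 4.53. OAS1, IFI16, IFITM2, IFITM3, RSAD2, GBP3, ISG20 and IFI35 made up the rest, and HERC5 was marked in HL-60 only.

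Growth factor receptors were split. Of 22 genes of that list marked in Molm13 and OCI-AML3, 5 had no HL-60 peak, or 22.7%, close to the share over all genes. CSF3R, the receptor of granulocyte colony-stimulating factor, had a fold enrichment of 5.44 in Molm13 and 4.47 in OCI-AML3, with the nearest HL-60 peak 2927 bp away. The other 4 were CSF1R, IL7R, IL10RA and IL4R. KIT, the stem cell factor receptor, was marked in HL-60 only, with a fold enrichment of 3.67, as were the interleukin-33 receptor IL1RL1 and its neighbour IL18R1, which shared 1 peak with a fold enrichment of 3.92. The nearest Molm13 peak lay 7594 bp from a KIT TSS and the nearest OCI-AML3 peak 5452 bp. KIT and IL18R1 counted through a TSS other than the canonical one. The HL-60 peak of KIT, with a −log10 q of 2.60, began at position 54658678, against a canonical TSS at 54657957. That of IL18R1 ended at 102311583, against 102355796. KIT stayed in the set under 7 of 10 other ways of choosing it.

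All 6 HOX genes marked in Molm13 and OCI-AML3 belonged to the HOXA cluster and had no HL-60 peak within 500 bp. HOX genes are homeobox factors whose persistent activity is common in AML. HOXA3, HOXA7, HOXA9 and HOXA10 lay under 1 Molm13 peak 25378 bp wide with a fold enrichment of 7.42, and all 6 genes under 1 OCI-AML3 peak 57053 bp wide with a fold enrichment of 4.42. HOXA11 had 6.01 and HOXA13 4.90 in Molm13, each from a peak of its own. The 6 genes were therefore 1 region and not 6 separate observations. The nearest HL-60 peak lay 813 bp from a HOXA11 TSS, 2608 bp from HOXA7 and 3406 bp from HOXA9, so that the cluster was not free of HL-60 peaks. Of the partners of HOX proteins, MEIS1 had a fold enrichment of 9.05 in Molm13 and 5.13 in OCI-AML3 and PBX3 6.10 and 4.19, with the nearest HL-60 peaks 50786 bp and 40157 bp away. The other 3 partner genes marked in Molm13 and OCI-AML3 were also marked in HL-60.

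Transcription factors of blood cells stood near the background. Of 30 marked in Molm13 and OCI-AML3, 6 had no HL-60 peak, or 20.0%. Beside IRF8 and KLF4 they were NFE2, with fold enrichments of 5.25 and 3.39, ID1, ID2 and CEBPD, whose nearest HL-60 peak lay at 827 bp. IKZF2 and PAX5 were marked in HL-60 only, at 4.98 and 2.93. The PAX5 peak had a −log10 q-value of 1.12, near the lowest in the list. The B cell list held 1 further HL-60 gene, the surrogate light chain IGLL1, with 4.88.

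Signalling lists gave mixed shares beside the 18.8%. The WNT list had 69.2% and the JAK-STAT list 27.8%, while the RAS and MAPK list, with 21.7%, stood close to the share over all genes. NF-kappaB genes, with 3 of 26, and NOTCH genes, with 1 of 10, lay below it. Of 13 WNT pathway genes marked in Molm13 and OCI-AML3, 9 had no HL-60 peak, among them the receptor FZD2 with 8.35 and 4.72 and the relay proteins DVL1 with 4.57 and 4.08, DVL2 with 5.76 and 3.15 and DVL3 with 4.23 and 2.77. WNT7B was marked in HL-60 only, with 3.01. Of 18 JAK-STAT genes 5 had no HL-60 peak, and PIM1, a kinase induced by STAT5, had 11.7 in Molm13 against 3.49 in OCI-AML3, while the feedback inhibitor SOCS2 had 9.49 and 3.89. STAT5A, STAT5B and SOCS3 were the other 3. Of 23 RAS and MAPK feedback genes 5 had none, with IER3 at 7.17 and 3.55.

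Other surface proteins were counted too. Of 15 leukaemia surface markers marked in Molm13 and OCI-AML3, 5 had no HL-60 peak. The tetraspanin CD9 had fold enrichments of 8.10 and 4.13 with an HL-60 peak at 1379 bp, and the NAD-consuming enzyme CD38 had 5.21 and 5.30 with the nearest HL-60 peak at 20690 bp. CD180, a Toll-like receptor homologue, had 5.49 and 3.70 and lay 1017715 bp from any HL-60 peak. CD52 and LILRB4 were the other members. Of 13 semaphorin, plexin and ephrin genes, which guide cell migration, 7 had no HL-60 peak, among them SEMA4C with 6.42 and 4.48 and PLXNB2 with 6.50 and 3.93. G protein-coupled receptors with GPR and ADGR symbols contributed 11 of 30, TNF superfamily ligands and receptors 5 of 14, and solute carriers 47 of 177.

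Granule genes of promyelocytes, the stage HL-60 cells are usually compared with, stood near the share over all genes. Of 13 marked in Molm13 and OCI-AML3, 3 had no HL-60 peak, or 23.1% against 18.8%, namely LYZ, RNASE3 and CFD. LYZ, which encodes lysozyme, had fold enrichments of 4.56 and 3.56 and RNASE3, an eosinophil ribonuclease, 7.46 and 4.98. All 6 NADPH oxidase genes marked in Molm13 and OCI-AML3 were also marked in HL-60. Of 2 further lists of defence, MHC class II contributed 2 of 4 marked genes, CIITA and HLA-DMB, and eicosanoid synthesis 3 of 8, among them PTGS2, or cyclooxygenase-2, with 6.58 and 4.37. Among 53 replication-dependent histone genes 8 had no HL-60 peak, and several shared a peak. H2AC14 and H2BC14 shared 1 at 8.28 and 5.24, and H2BC9 and H3C7 shared 1 at 8.82 and 5.17.

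Housekeeping lists held few members. Of 84 cytosolic ribosomal protein genes marked in Molm13 and OCI-AML3, all were marked in HL-60. Members numbered 3 of 77 mitochondrial ribosomal proteins, 3 of 86 respiratory chain genes, 2 of 48 proteasome subunits and 2 of 38 DNA replication genes. Peak strength moved with membership across all genes, as the next values show.

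Genes were ranked by the smaller of their −log10 q-values in Molm13 and OCI-AML3 and divided into 4 equal parts. In the weakest part 49.1% of 2633 genes had no HL-60 peak, in the next 16.0%, then 7.14%, and in the strongest 79 of 2633 had none. The median −log10 q of the genes without an HL-60 peak was 4.06 in Molm13 and 5.997 in OCI-AML3, against 10.8 and 11.996 for genes marked in all 3 lines. Their median fold enrichment was 4.38 and 3.23, against 6.84 and 4.24. Genes marked in HL-60 only had a median −log10 q of 2.47 and a median fold enrichment of 3.60 in HL-60, against 6.97 and 5.22. Both sets thus had weaker promoter peaks than the genes marked in all 3 lines. Against all peaks of a list, whose median −log10 q was 2.90 in Molm13, 3.54 in OCI-AML3 and 2.59 in HL-60, the first set lay above the median and the HL-60 set close to it. Among the stronger 5265 of the genes marked in Molm13 and OCI-AML3, 267 had no HL-60 peak, or 5.07%. The monocyte list held 4 of 9 there, the Toll-like and NLR receptor list 5 of 9 and the HOX genes 4 of 4, while interleukins and their receptors held 0 of 6. Whether peak strength accounts for the list shares was not tested.

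**Figure D1:**
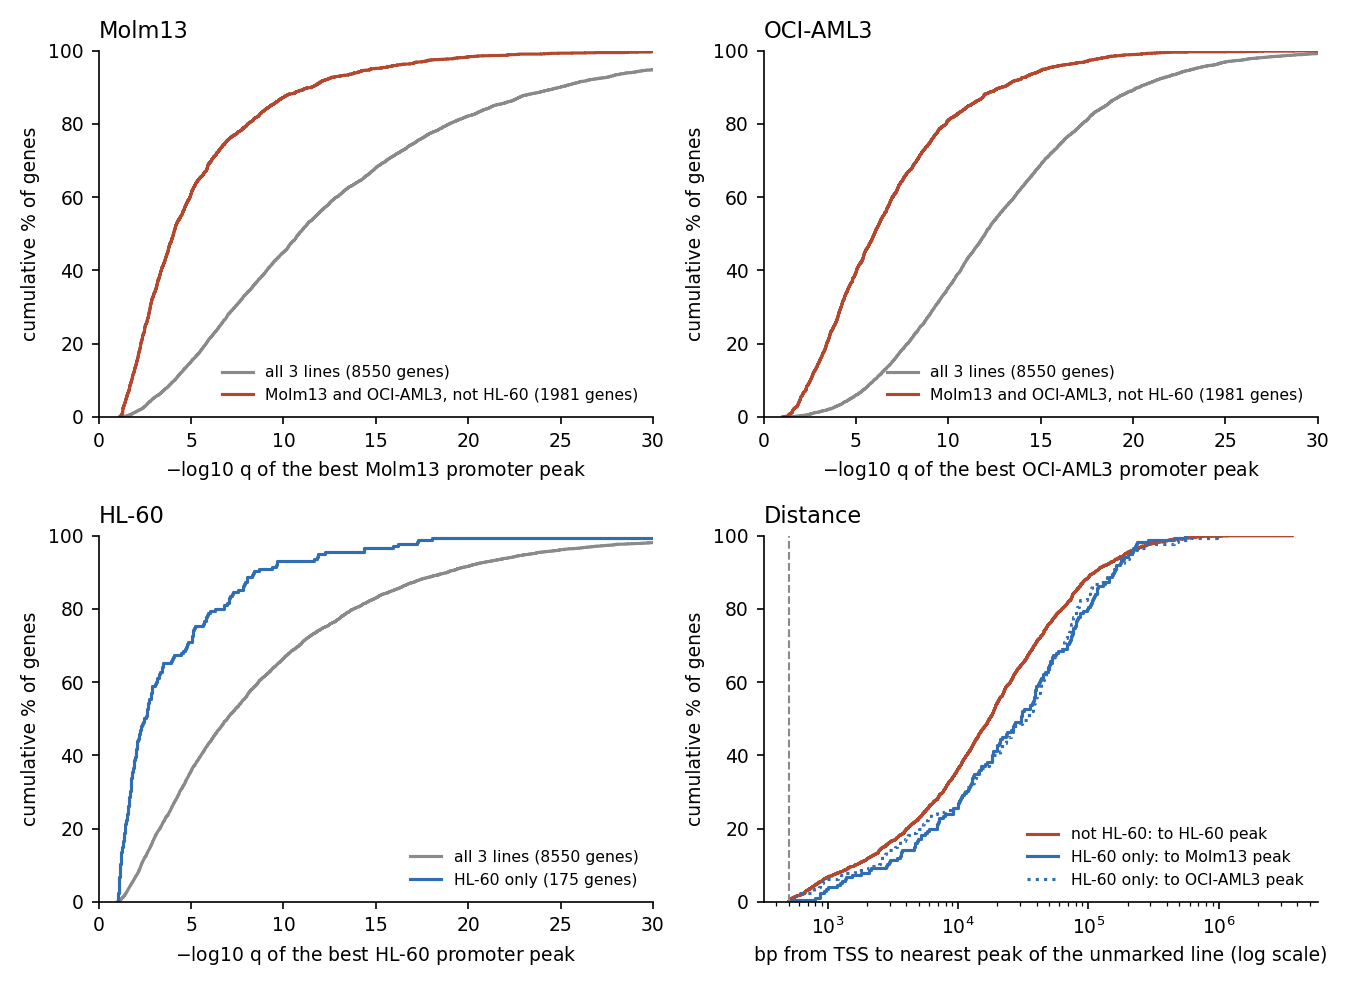
Cumulative share of genes (%, y axes) by the −log10 q of their best promoter peak in Molm13, OCI-AML3 and HL-60 (x axes, drawn to 30) for the member sets and for the 8550 genes marked in all 3 lines, and, in the last panel, by distance in bp (log scale) from a TSS to the nearest peak of the line without the mark. The member curves lie left of the shared genes in each line, and the dashed line marks the 500 bp limit.

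The distance to the nearest HL-60 peak ranged from 501 bp to 3700848 bp, with a median of 17450 bp. It was within 1 kb for 134 of the 1981 genes, within 10 kb for 718, or 36.2%, and beyond 100 kb for 228, or 11.5%. Genes marked in HL-60 only lay a median of 30584 bp from the nearest Molm13 peak and 34143 bp from the nearest OCI-AML3 peak. At the limit itself, WRNIP1 at 501 bp, FOSL1 at 502 bp and DHX32 at 503 bp were members, while LPP at 500 bp and UBTD1 and KLHDC1 at 498 bp counted as marked in HL-60. On the other side GLIS3 at 512 bp, C1orf105 at 548 bp and NR2F2 at 550 bp counted as HL-60 only, and SEC31B at 481 bp, PTX3 at 470 bp and RAB12 at 460 bp did not.

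The 1981 genes were not 1981 independent regions. They lay at 1836 distinct Molm13 peaks and 1831 distinct OCI-AML3 peaks, and 281 and 288 of them shared a peak with another member. The 175 genes lay at 170 HL-60 peaks. Runs of 3 or more neighbouring coding genes that were all members numbered 57 and held 191 genes. The longest held 6, namely ZNF554, ZNF555, ZNF556, ZNF57, ZNF77 and TLE6 on chromosome 19. Others joined the chemokine receptors CCR3, CCR1 and CCR2, the adhesion genes ICAM1, ICAM4 and ICAM5 with ZGLP1 and FDX2, the cytokine and complement genes CD70, TNFSF14 and C3, and the leukotriene receptors LTB4R2 and LTB4R with CIDEB, ADCY4 and the necroptosis kinase RIPK3. CD70 had fold enrichments of 8.21 and 5.22 and ICAM1 7.76 and 2.83. Genes marked in HL-60 only formed 2 runs, ZNF793, ZNF540 and ZNF571, and ZNF667, ZNF471 and ZFP28, both on chromosome 19.

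By chromosome, chromosome 8 stood apart for the genes without an HL-60 peak. It held 153 of them among 702 coding genes, or 21.8% with a Wilson 95% interval of 18.9% to 24.998%, against 9.92% over all chromosomes. Among the 369 genes of chromosome 8 marked in Molm13 and OCI-AML3 the share was 41.5%, against 18.8% overall. Chromosome 20 came next with 13.4% of coding genes, followed by chromosome 19 with 12.4% and chromosome 17 with 12.2%, and chromosome 18 had the lowest share, 4.89%. Without chromosome 8 the share was 9.49%. The HL-60 list had 357 peaks on chromosome 8, or 1.72% of the list, whereas Molm13 had 1657, or 4.72%, and OCI-AML3 2359, or 6.29%. HL-60 peaks marked 31.2% of its coding genes, Molm13 peaks 54.6% and OCI-AML3 peaks 55.4%. The peaks called there in HL-60 had a median fold enrichment of 3.89 against 3.60 over its whole list. The medians of Molm13 and OCI-AML3 were lower there than over their lists, at 3.37 against 3.80 and at 2.50 against 2.95. These medians cover called peaks only, so they do not show the signal at promoters without a peak. Peak numbers ran through the deposited HL-60 list with 0 gaps.

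The share varied along the chromosome and was higher than elsewhere at every peak strength. In windows of 25 Mb the share of marked genes without an HL-60 peak ran from 24.5% to 54.4%, against 18.0% outside chromosome 8. It was highest at both ends, at 54.4% in the first window and 52.3% in the last. It was lowest from 50 to 75 Mb, with 12 of 49 genes, and from 100 to 125 Mb, with 13 of 53. The excess in those windows was small and rests on few genes. In the weakest part of the ranking by strength 90.2% of the chromosome 8 genes had no HL-60 peak against 48.1% elsewhere, and in the strongest part 14.4% of 180 against 2.16% of 2453. Of the 15 strongest members by −log10 q, 7 lay on chromosome 8. That chromosome held 26 of the 79 members in the strongest part and 7.72% of all members. NIPAL2, a NIPA-like membrane protein, had fold enrichments of 9.42 in Molm13 and 5.17 in OCI-AML3 with the nearest HL-60 peak 87569 bp away. The calcium sensor NCALD had 8.09 and 4.12, GSDMD, the pore protein of pyroptosis, 8.08 and 4.05, and the adaptor DOK2, a brake on signalling in myeloid cells, 9.001 and 4.12. COMMD5, LETM2 and TG were the others, and for LETM2 an HL-60 peak lay at 667 bp. The strongest members elsewhere were TMPRSS9, with 10.8 and 5.67, and PLEKHG2, with 11.4 and 4.78, of which TMPRSS9 had an HL-60 peak at 716 bp. Chromosome copy number and input reads were not analysed here, and their part in the result was not tested.

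Genes marked in HL-60 only were gathered on chromosome 19. It held 41 of the 175, or 2.78% of its coding genes with an interval of 2.05% to 3.75%, against 0.876% over all chromosomes. Chromosome 21 followed with 1.82%, from 4 genes. Most of the 41 genes on chromosome 19 were C2H2 zinc finger genes. These encode DNA-binding proteins that mostly repress transcription, and chromosome 19 carries large clusters of them. Of 261 zinc finger genes on chromosome 19, 32 were marked in HL-60 only, or 12.3%. Of the other 1215 genes of the chromosome 9 were, or 0.741%, and of 335 zinc finger genes elsewhere 4 were, or 1.19%. In all, 36 of the 175 genes were zinc finger genes by symbol. Of the 596 zinc finger genes, 335 were marked in all 3 lines and 63 in Molm13 and OCI-AML3 but not HL-60. Zinc finger genes of chromosome 19 were also frequent among the 201 genes marked in HL-60 and OCI-AML3 but not Molm13, with 23 of 261, or 8.81%, against 4 of the other 1215 genes of the chromosome, or 0.329%. A further 3 were marked in HL-60 and Molm13 but not OCI-AML3.

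The 32 genes were spread from TSS position 19733112 to 58228914 of chromosome 19. Their fold enrichment in HL-60 ran from 2.96 to 8.87 with a median of 5.01, against 3.60 for all 175 genes. Their distance to the nearest peak had a median of 33304.5 bp in Molm13 and 38794 bp in OCI-AML3, and 29 of the 32 lay more than 10 kb from a peak in both. ZNF793 had the highest fold enrichment, 8.87, with a −log10 q of 17.3, and ZNF610 followed with 8.59 and 18.0. ZNF814 had 7.63 and ZNF544 7.47. ZNF568 and ZNF829, which start next to each other on opposite strands, shared a peak of 560 bp with 6.31. ZNF841 had 6.49. All 7 of these genes stayed in the set under each of 10 other ways of choosing it. Outside chromosome 19, ZNF35 had 5.39 and ZNF300 5.50.

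The strongest HL-60 gene was not a C2H2 zinc finger gene but MKRN3, an imprinted gene of the Prader-Willi region on chromosome 15, with a fold enrichment of 13.9 and a −log10 q of 38.8. The nearest Molm13 peak lay 38683 bp away and the nearest OCI-AML3 peak 490157 bp away. PTPRCAP, a partner of the phosphatase CD45, had 6.001, with peaks of the other lines at 4587 bp and 5347 bp, and PTX4 6.75. MYEOV had 7.91 and the aspartic protease CTSE 6.63, but in both a peak of another line lay within 1 kb, at 791 bp and at 868 bp. NR2F2, an orphan nuclear receptor, had 7.18 with an OCI-AML3 peak at 550 bp. TRIM39-RPP21, a readthrough gene, had 8.35 and shares its exons with its neighbours.

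Since the HL-60 list was shorter, the genes were also chosen from lists of equal length, the 20733 strongest peaks of each line. Ranked by q-value these gave 1388 genes marked in Molm13 and OCI-AML3 but not HL-60, all of them among the 1981, and 296 marked in HL-60 only. Ranked by fold enrichment they gave 1234 and 328. The sizes of the sets thus came closer but stayed apart. The first set needs a peak in both Molm13 and OCI-AML3, and the second needs none in either. Lists of equal length therefore need not give sets of equal size. Chromosome 8 had the highest share of the first set and chromosome 19 of the second under each of 10 alternatives, chromosome 8 at 2.098 to 2.86 times the overall share and chromosome 19 at 2.43 to 5.26 times. Counted anew under each, the first set held 7 to 13 genes of the monocyte list, 10 to 14 of the Toll-like and NLR receptor list and 5 to 8 HOX genes, not always the ones named above. Single genes were less stable. Of the 1981 genes 654, or 33.0%, were members under all 10 alternatives, and of the 175 genes 43, or 24.6%, of which 24 were zinc finger genes. Among the immune genes MS4A6A, CCR2, LILRB4, AIM2, NLRP3, TLR1, TLR2, IRF8 and CX3CR1 were members under all 10, as were HOXA9 and MEIS1.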

How the data were processed

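H3K27ac ChIP-seq lists of HL-60, Molm13 and OCI-AML3 (empty vector), grouped by sample title, were analysed. The submitters' processing notes name Trim Galore 0.4.5, Bowtie2 2.3.4, MACS2 2.1.1, deepTools and hg38, and the study's methods give the broad peak mode and a q-value limit of 0.05. The control library of the peak caller is not given in the sources used here. For each peak the deposited lists hold its position, its fold enrichment (a ratio over the local background) and the −log10 of its q-value, as the authors' caller wrote them. The largest q-value in a list was 0.0947 to 0.0995, above the stated limit. Read numbers were not given, so the depth was unknown, and no interval could be based on reads. The lists differed in length, and peak values were not rescaled.

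Peaks outside chromosomes 1 to 22 and X were left out, namely 81 of the HL-60 list, 137 of the Molm13 list and 75 of the OCI-AML3 list. The distance from each of 146165 TSSs of GENCODE v44 coding genes (hg38) to the nearest peak was computed, with a limit of 500 bp. Coordinates are 1-based. Bedtools 2.31.1 gave the same genes in each line, with 0 differing, and the selection was tested on simulated data. Where several peaks marked a gene, the one with the largest −log10 q-value was taken.

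RefSeq promoters (GRCh38.p14) were matched by symbol for 15321 genes. Promoters of chromosome 8 were not used here, so CpG and motif shares cover other chromosomes. The members and the gene lists were chosen with earlier results of these data known, and 1 list and 1 marker gene are not reported here. Genes named were members on the lists, the 15 strongest of each set by −log10 q-value, members in runs of at least 3 neighbours, and genes just inside or outside the 500 bp limit. With 1 library per line no test was possible, and shares carry Wilson 95% intervals. Alternatives changed the limit, the q-value, the list length, the TSSs used, the genes kept and the CpG definition. Scripts ran under Python 3.11.15 with SciPy 1.17.1, pandas 2.3.3, NumPy 2.4.6 and matplotlib 3.10.9. The other deposited lists, of K562 cells, were not used.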

Additional observations from a re-analysis of the deposited data

How the results depend on the processing

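No paired analysis was possible because each line had 1 library. With lists of equal length by q-value, 296 genes were marked in HL-60 only, 88 of them on the gene lists, and the shares were 18.1% on chromosome 8 (no HL-60 peak) and 4.00% on chromosome 19 (HL-60 only). With equal length by fold enrichment, the sets held 1234 and 328 genes, 224 and 95 of them on the gene lists, and the shares were 13.0% and 4.27%. Shortening the Molm13 and OCI-AML3 lists removes genes from the first set and adds to the second by construction. Requiring a q-value below 0.001 for presence only left 1212 and 72 genes, 234 and 33 of them on the gene lists, with 17.4% on chromosome 8, 1.90% on chromosome 19 and CpG-rich promoters of 68.8% in the first set and 67.9% in the HL-60 set, which closes the reported gap of 71.1% to 56.2%. The same limit in all 3 lists gave 26.2% on chromosome 8 and CpG-rich shares of 74.7% (no HL-60 peak) and 69.1% (HL-60 only). In the same order the CpG-rich shares were 75.7% and 67.2% with the TSS inside the peak, 74.8% and 67.7% with canonical TSSs only, and 54.8% and 40.9% with a ratio of at least 0.75 and a GC content of at least 55%, which is stricter by construction. They were 77.8% and 71.4% where the RefSeq start lay within 500 bp of the peak, an alternative chosen after seeing the data. Where no construction is named, the cause was not tested. The other 56 values stayed within 1.5 times the reported count, or within the interval of the reported share. The unknown depth limits every absence, and a gene without a peak in the shorter HL-60 list may lie just below the caller's limit.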

Other observations

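Among the genes marked in HL-60 only were several known from macrophages, named here after their values were seen and on none of the gene lists. LPL, lipoprotein lipase, had a fold enrichment of 4.83 in HL-60, with the nearest Molm13 and OCI-AML3 peaks 2952 bp and 2612 bp away. GPNMB, a glycoprotein of lipid-laden macrophages, had 3.75 with an OCI-AML3 peak at 787 bp, and MERTK, a receptor for dying cells, had 3.26 with peaks at 4695 bp and 3564 bp. Both counted through a TSS other than the canonical one. The GPNMB peak began at position 23273371, against a canonical TSS at 23246775. The MERTK peak, with a −log10 q of 1.73, began at 112019681, against 111898607. GPNMB and MERTK each stayed in the set under 6 of the 10 alternatives. The lectin CLEC5A had 4.32, with the nearest peaks of the other lines 157140 bp and 157342 bp away. FCAR, the receptor for immunoglobulin A, had 3.22 with an OCI-AML3 peak at 848 bp. These stood beside the 12 genes of the monocyte list that were marked in the other lines only.

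KITLG, the ligand of KIT, was also marked in HL-60 only, at 3.33 with a −log10 q of 1.75, against 2.60 for KIT. So were LIN28B, an RNA-binding protein of embryonic cells, at 3.81, and its indirect target HMGA2, at 3.58, both with the nearest peaks of the other lines more than 70 kb away. PEG3, an imprinted zinc finger gene on chromosome 19, had 4.12. These too were chosen after their values were seen.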
